A study of Mus musculus with 6 samples.

Results

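Checkpoint ligands are surface or secreted proteins through which a tumour cell can restrain the T cells, natural killer cells and macrophages it meets. The genes described here are 10 such ligands, chosen by name from the 55487 genes of a count table: Cd274, Pdcd1lg2, Cd276, Cd80, Vsir, Pvr, Nectin2, Tnfrsf14, Lgals9 and Cd47. They were compared between control cells (shCtr, 3 libraries) and cells depleted of OSGEP (shOSGEP, 3 libraries), to ask whether these ligands differ at the RNA level after loss of OSGEP. Of the 10 ligands, 7 passed the filter on low counts and were tested, and 3 (Pdcd1lg2, Cd80 and Vsir) had too few reads.

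All libraries came from B16F10, an established mouse melanoma line whose control libraries are labelled wild type, grown in DMEM with serum. The shCtr cells carried a scramble shRNA and the shOSGEP cells carried the shRNA OSGEP#2, a single hairpin, both delivered by lentivirus and followed by selection of the infected cells. Polyadenylated RNA from 3 separate infections was sequenced in each group. OSGEP provides the catalytic activity of KEOPS, a complex that modifies tRNAs next to the anticodon by adding t6A.

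The ligands fall into a few families. The B7 family holds PD-L1 (Cd274) and PD-L2 (Pdcd1lg2), which engage PD-1 on T cells, B7-1 (Cd80), which binds CD28 and CTLA-4, B7-H3 (Cd276) and VISTA (Vsir). CD155 (Pvr) and CD112 (Nectin2) are nectin-like adhesion proteins read by TIGIT, PVRIG, CD96 and CD226, so the same ligand can restrain or activate a lymphocyte depending on the receptor. HVEM (Tnfrsf14) is a member of the TNF receptor family that binds BTLA and CD160, galectin-9 (Lgals9) is a sugar-binding protein that binds TIM-3, and CD47 binds SIRPα on macrophages and restrains phagocytosis. In many cell types interferons induce Cd274 through JAK and STAT proteins and IRF1.

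The region of Osgep listed for hairpin OSGEP#2 is shown because it defines the knockdown, with capitals marking the bases that lie in exon 5 and lower case those in exon 4.

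OSGEP#2: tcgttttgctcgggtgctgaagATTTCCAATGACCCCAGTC

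These 41 bases lie on the minus strand of GRCm38 at chr14:50917836-50917857 and chr14:50917485-50917503. They were present in 7 of 8 annotated Osgep transcripts and lay within the coding sequence in 5 of these. The longest run of bases that they shared with any annotated transcript of a checkpoint ligand was between 7 and 10 bases. A run of at least 20 of these bases was also present in 1 other annotated gene, AC115117.1.

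The promoters of 9 ligands were matched by symbol in RefSeq (GRCm38.p6) and searched on both strands from 250 bases before to 50 bases after the start site. The core of the interferon-stimulated response element, GAAA repeated after a gap of 2 bases, was present in 2 of the 9, Lgals9 and Tnfrsf14, and in 943 of 27025 promoters (3.49%). Both matches before the RefSeq start site searched are shown because they are the matches to this interferon motif found among the ligands, with the motif, here read on the opposite strand, in capitals.

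Lgals9: tgacatcagcTTTCTTTTTCtctagacact

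Tnfrsf14: ctattttttcTTTCATTTTCacttttcctt

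The Lgals9 sequence lies at chr11:78984960-78984989 on the minus strand, with the motif at -55 to -46 from the start site, and Lgals9 held another match 16 bases into the transcript. The Tnfrsf14 sequence lies at chr4:154928122-154928151 on the minus strand, with the motif at -64 to -55. The gamma-activated site TTCNNNGAA, found in 8.47% of all promoters, and the ATF4 element core TGATGNAA, found in 4.06%, were found in 0 of the 9. The end of the searched window lay in an annotated transcript for each of the 9 except Cd276.

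Depth was between 18915587 and 29487384 estimated counts per library. The libraries were not alike: shCtr replicate 2 had a TMM factor of 0.690, against 1.04 to 1.14 in the others, and its log2 values correlated with the other libraries at 0.750 to 0.873. For shOSGEP replicate 2 the correlations were 0.865 to 0.915, and among the remaining 4 libraries they were 0.953 to 0.986. Values of shCtr replicate 2 moved with the GC content and length of the transcript across all genes, and this trend is given beside each tested ligand. Osgep itself measured 20.6, 58.6 and 21.8 CPM (counts relative to the TMM-scaled library size) in shCtr replicates 1, 2 and 3 and 4.28, 0.542 and 5.52 CPM in shOSGEP. The shOSGEP libraries were lower in every case (log2 fold change -3.29 ± 0.88, SE), with an unadjusted p of 0.00524 in edgeR's quasi-likelihood test and an adjusted p of 1.00. Melanoma markers were abundant in both groups, with a summed level of 17710 to 31659 CPM over 10 genes in shCtr and 3715 to 18972 CPM in shOSGEP. All 10 had log2 fold changes below 0, with a median of -0.93, and 0 passed. The lowest unadjusted p-values in edgeR were those of Oca2 (-2.49, p of 0.0645), Gpr143 (-1.22, p of 0.0890) and Sox10 (-0.95, p of 0.158). These values rested on the replicate 2 libraries: without shCtr replicate 2 they were 0.12 for Oca2, -0.32 for Gpr143 and -0.44 for Sox10. With neither replicate 2 library, 4 of the 10 markers were above 0, 6 were below, and the median was -0.06.

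Higher mean levels in shOSGEP were measured for 6 of the 7 tested ligands (Cd274, Cd276, Pvr, Nectin2, Tnfrsf14 and Cd47), and Lgals9 was lower. Of the 12669 genes tested, 47.3% had a log2 fold change above 0. No ligand passed either call rule in the edgeR fit without a block. With adjusted p-values from edgeR's quasi-likelihood test held to 0.05, 0 ligands passed, as did 0% of the 12669 genes tested, and every tested gene named here had an adjusted p of 1.00 in that fit. Past the threshold of the study (an unadjusted p under 0.05 and a log2 fold change above 0.5 or below -0.5), 0 ligands passed, against 1.59% of all genes for higher and 0.426% for lower. With the replicate number as a block, 1 ligand (Pvr) passed that threshold, against 2.94% of all genes in either direction. In the fit without a block, the median log2 fold change of the 7 ligands was 0.74, and that of all genes was -0.03. Without a block, the count of ligands at an unadjusted p under 0.05 was 0 in edgeR and 1 in DESeq2 (Pvr). It was 2 in limma-voom with sample quality weights (Pvr and Tnfrsf14). All of these were past the threshold of the study. Of all genes, 2.02%, 2.93% and 4.42% passed it in these 3 fits in either direction. At an adjusted p under 0.05 the count of ligands was 0 in each of the 3 tools. Of the 12669 genes tested, 0 passed it in edgeR, 14 in DESeq2 and 3 in limma-voom. In the plot of levels by library, the groups overlapped for each tested ligand except Tnfrsf14.

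**Figure D1:**
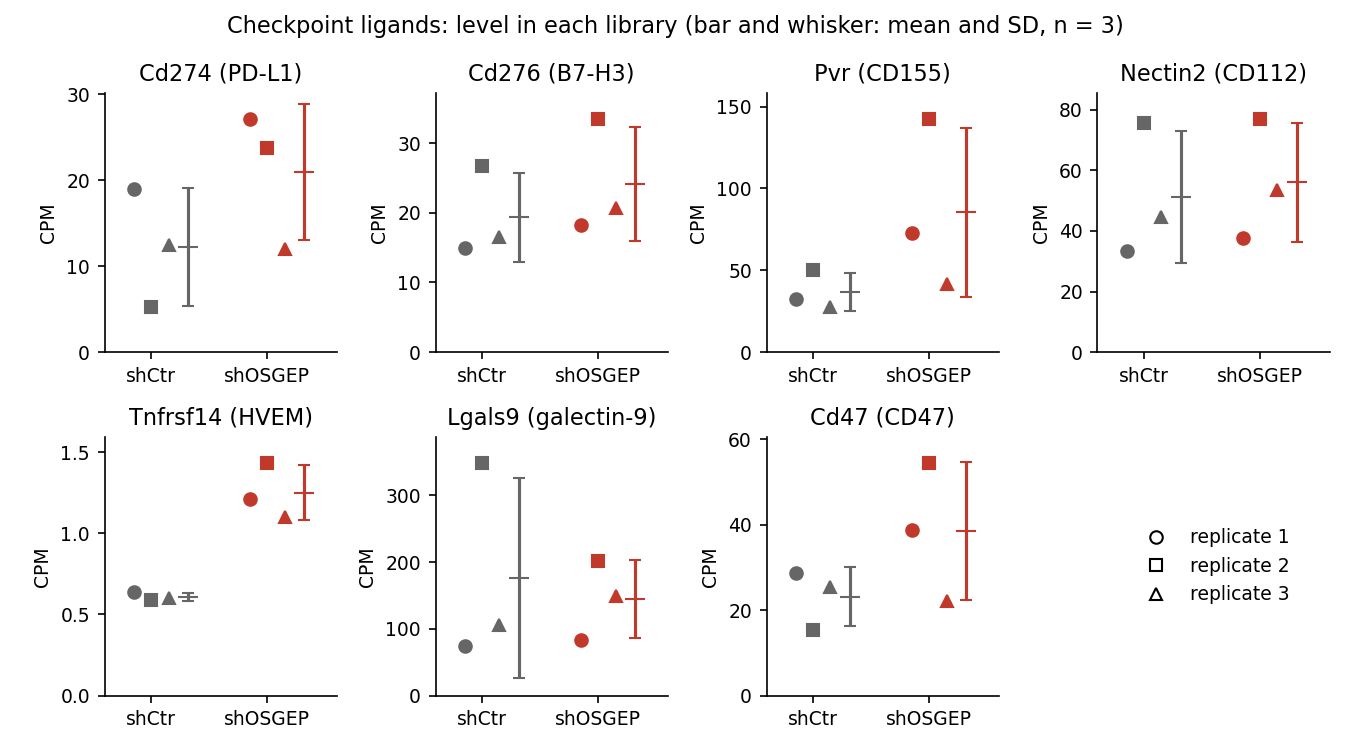
Level of the 7 tested checkpoint ligands in each library, in CPM on a linear axis from 0, with shCtr in grey, shOSGEP in red, the marker shape giving the replicate number and the bar with whiskers giving mean and SD of 3 libraries. The 3 shOSGEP libraries lie above the 3 shCtr libraries for Tnfrsf14, and the groups overlap for the other 6.

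PD-L1, the ligand of PD-1 that is the best known target of checkpoint therapy, is encoded by Cd274 (ENSMUSG00000016496, chr19:29367455-29388095, plus strand). It measured 19.0, 5.21 and 12.5 CPM in shCtr replicates 1, 2 and 3 and 27.1, 23.7 and 12.0 CPM in shOSGEP. The lowest value was in shCtr replicate 2, and shOSGEP replicate 3 lay below 2 of the 3 controls. The log2 fold change was 0.78 ± 0.59 (SE), with an unadjusted p of 0.220 in edgeR. An exact permutation test on mean log2 levels gave 0.3, two-sided, for which 3 libraries against 3 cannot give less than 0.1. Within same-numbered libraries the log2 ratio was 0.51 in replicate 1, 2.19 in replicate 2 and -0.05 in replicate 3, so that most of the mean difference lay in 1 of the 3 comparisons. In shCtr replicate 2, the deviation of log2 Cd274 from its mean over libraries was -1.47, and the trend for genes of its GC content (44.9%) and length was -1.11. With offsets for this trend the log2 fold change was 0.56, it was 0.41 when shCtr replicate 2 was left out, and 0.31 when both replicate 2 libraries were. It was 1.24 without shCtr replicate 1 and 1.05 without shOSGEP replicate 3, and the unadjusted p stayed above 0.05 in all 16 alternative fits.

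The other PD-1 ligand, PD-L2, is encoded by Pdcd1lg2, which starts 22823 bases after the end of Cd274 (chr19:29410919-29471161, plus strand). Pdcd1lg2 had 1, 1 and 0 counts in shCtr and 0 counts in each shOSGEP library. All 6 values were at or below the floor of 3 counts, which equals 0.116 to 0.147 CPM depending on the library, so a difference was not detectable at this depth. Floors cover counting error only.

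B7-H3 is encoded by Cd276 (ENSMUSG00000035914, chr9:58524298-58555437, minus strand), and its receptor is not settled. Cd276 measured 14.9, 26.6 and 16.5 CPM in shCtr and 18.3, 33.4 and 20.6 CPM in shOSGEP. Replicate 2 was the highest library in both groups, and the groups overlapped. Cd276 had a log2 fold change of 0.32 ± 0.46 (SE) and an unadjusted p of 0.510 in edgeR. The log2 ratios within same-numbered libraries were close to each other, at 0.29, 0.33 and 0.32. Without shOSGEP replicate 2 the log2 fold change was 0.03, and without shCtr replicate 2 it was 0.62. At its GC content (56.2%) and length the trend in shCtr replicate 2 was 0.57, beside an observed deviation of 0.35, and with the offsets the log2 fold change was 0.56.

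Cd80 and Vsir, the remaining B7 genes, were near the floor. Cd80 (chr16:38455561-38496335, plus strand) had 1, 4 and 1 counts in shCtr and 8, 1 and 4 in shOSGEP. These ranges overlapped, and Cd80 did not enter the test. Vsir (chr10:60346851-60372684, plus strand) had 0 counts in each shCtr library and 0, 2 and 1 counts in shOSGEP, within the floor in all 6 libraries.

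CD155, the higher-affinity nectin-like ligand of TIGIT and CD226, is encoded by Pvr (ENSMUSG00000040511, chr7:19903578-19921160, minus strand). Pvr measured 32.8, 50.0 and 27.7 CPM in shCtr and 72.6, 142 and 41.4 CPM in shOSGEP. Only shOSGEP replicate 3 overlapped the controls, lying below shCtr replicate 2. It had the largest log2 fold change of the 7 tested ligands, at 1.21 ± 0.54 (SE), or 2.32-fold. The unadjusted p was 0.0547 in edgeR and 0.2 in the exact permutation test, and the adjusted edgeR p was 1.00. The log2 ratio was above 0 in 3 of 3 same-numbered comparisons, at 1.15, 1.51 and 0.58. With the replicate number as a block the log2 fold change was 1.08 with an unadjusted edgeR p of 0.0141, past the threshold of the study, and the adjusted p was 0.741. Pvr passed that threshold in 10 of 16 alternative fits, among them the fits without shCtr replicate 2 (1.49, p of 0.0261) and without shOSGEP replicate 3 (1.54, p of 0.0281), and without shOSGEP replicate 2 it was 0.65 with a p of 0.219, all unadjusted edgeR values. At its GC content of 48.6% and its length the trend was between -0.20 and 0.13 in all 6 libraries, and with the offsets the log2 fold change was 1.06.

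CD112, which binds PVRIG and TIGIT, is encoded by Nectin2 (ENSMUSG00000062300, chr7:19716644-19750483, minus strand), on the same strand 153094 bases from Pvr. Nectin2 measured 33.4, 75.7 and 44.6 CPM in shCtr and 37.8, 76.8 and 53.6 CPM in shOSGEP. The same-numbered libraries of both groups lay close together, and replicate 2 was the highest in each group. The log2 fold change was 0.13 ± 0.48 (SE), with an unadjusted p of 0.792 in edgeR, and the log2 ratios were 0.18, 0.02 and 0.26. The direction turned without shCtr replicate 1 (-0.10) and without shOSGEP replicate 2 (-0.14). In shCtr replicate 2 the trend at its GC content (58.0%) and length was 0.82, beside an observed deviation of 0.57, and the log2 fold change was 0.41 with the offsets and 0.52 without that library. The difference between Pvr and Nectin2 was not tested.

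HVEM is encoded by Tnfrsf14 (ENSMUSG00000042333, chr4:154921933-154928563, minus strand), for which the sequence above lies before the RefSeq start searched and within the span of the gene in GENCODE, where other transcripts start farther upstream. It was the least abundant of the tested ligands, with 15, 12 and 13 counts in shCtr and 26, 37 and 26 counts in shOSGEP. In CPM these were 0.637, 0.590 and 0.599 against 1.21, 1.43 and 1.10, so that every shOSGEP library lay above every shCtr library. A gap of this kind, with shOSGEP higher, was present in 3.49% of all genes tested and in 1 of the 7 ligands; with shOSGEP lower, it was present in 2.87% of all genes and in 0 ligands. The log2 fold change was 1.03 ± 0.52 (SE), or 2.04-fold, with an unadjusted p of 0.0808 in edgeR and 0.1 in the exact permutation test, the smallest it allows. The log2 ratios within same-numbered libraries were 0.92, 1.28 and 0.88, and the log2 fold change was between 0.90 and 1.20 in 16 alternative fits. Tnfrsf14 passed the threshold of the study in 3 of these 16. The trend for its GC content (54.1%) and length was 0.99 in shCtr replicate 2, in which the observed deviation was -0.51. With the offsets the log2 fold change was 1.12.

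Galectin-9 is encoded by Lgals9 (ENSMUSG00000001123, chr11:78962974-78984946, minus strand). Lgals9 measured 73.9, 348 and 106 CPM in shCtr and 83.7, 201 and 149 CPM in shOSGEP. Replicate 2 was the highest library in both groups, and shCtr replicate 2 was above all others. The mean difference was a log2 fold change of -0.28 ± 0.65 (SE), with an unadjusted p of 0.674 in edgeR. The log2 ratio was 0.18 in replicate 1, -0.79 in replicate 2 and 0.50 in replicate 3, so that the mean difference had the direction of replicate 2 alone. Without shCtr replicate 2 the log2 fold change was 0.69, and without both libraries of replicate 2 it was 0.38. In shCtr replicate 2 the observed deviation of log2 Lgals9 was 1.34 and the trend at its GC content (51.8%) and length was 0.61. With the offsets the log2 fold change was -0.04.

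CD47 is encoded by Cd47 (ENSMUSG00000055447, chr16:49800533-49915010, plus strand). Cd47 measured 28.7, 15.4 and 25.3 CPM in shCtr and 38.8, 54.5 and 22.2 CPM in shOSGEP. The lowest of the 6 libraries was shCtr replicate 2 and the highest was shOSGEP replicate 2, while shOSGEP replicate 3 lay below 2 of the 3 controls. The log2 fold change was 0.74 ± 0.49 (SE), with an unadjusted p of 0.168 in edgeR and 0.3 in the exact permutation test. The log2 ratios were 0.44, 1.82 and -0.19, the same order as for Cd274. Cd47 had the lowest GC content of the tested ligands (42.2%). For its GC content and length the trend in shCtr replicate 2 was -1.93 beside an observed deviation of -0.88. The log2 fold change was 0.20 with the offsets, 0.40 without shOSGEP replicate 2 and 0.18 with neither replicate 2 library.

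Compared within same-numbered libraries, 4 ligands (Cd276, Pvr, Nectin2 and Tnfrsf14) were higher in 3 of 3 and 0 were lower in 3 of 3, against 17.6% and 17.2% of all genes. The median log2 ratio of the 7 ligands was 0.44 in replicate 1, 1.28 in replicate 2 and 0.32 in replicate 3. A ratio above 0 was measured for 7, 6 and 5 of the 7 ligands in these comparisons. The share of all genes above 0 in each single comparison is not given here. The ratios spread most widely over the ligands in replicate 2, where Cd274 and Cd47 had their largest ratios and Lgals9 its lowest. The log2 ratio of Osgep was -2.27 in replicate 1, -6.76 in replicate 2 and -1.98 in replicate 3. A relation between the depth of the knockdown and the ratios of the ligands was not tested.

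**Figure D2:**
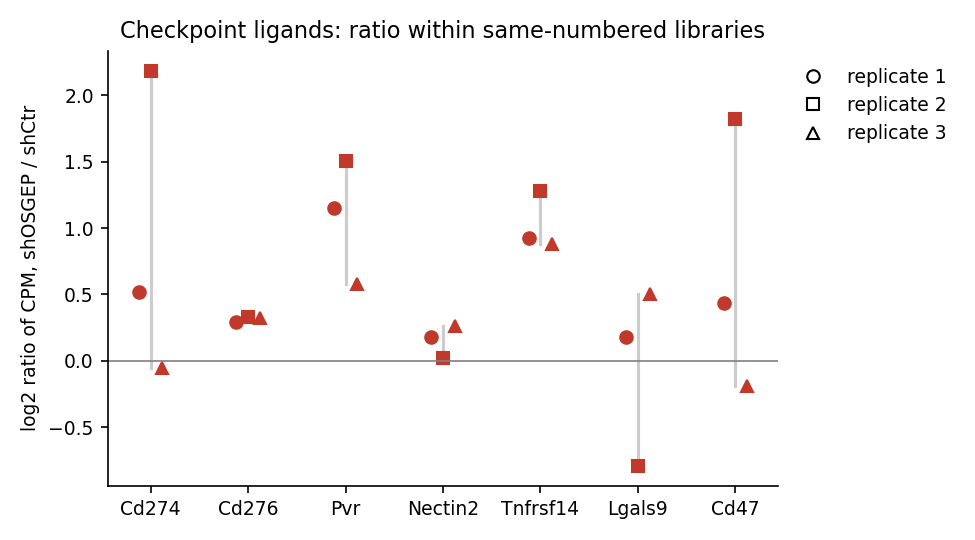
Log2 ratio of CPM, shOSGEP over shCtr, within each same-numbered pair of libraries for the 7 tested ligands, with the marker shape giving the replicate number and a grey line spanning the 3 values. Cd274 and Cd47 reach 2.19 and 1.82 in replicate 2 and lie below 0 in replicate 3, while the ratios of Cd276 stay between 0.29 and 0.33.

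The plot of fold changes under 5 fits shows the same ligands, with an error for the edgeR fit without a block only. Pvr and Tnfrsf14 stayed above 0.5 on the log2 scale in all 5 fits. Cd276 (0.32) and Nectin2 (0.13) were below 0.5 in the fit without a block. Cd274 and Cd47 each went below 0.5 in at least 1 of the 5 fits, and Lgals9 was on both sides of 0.

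**Figure D3:**
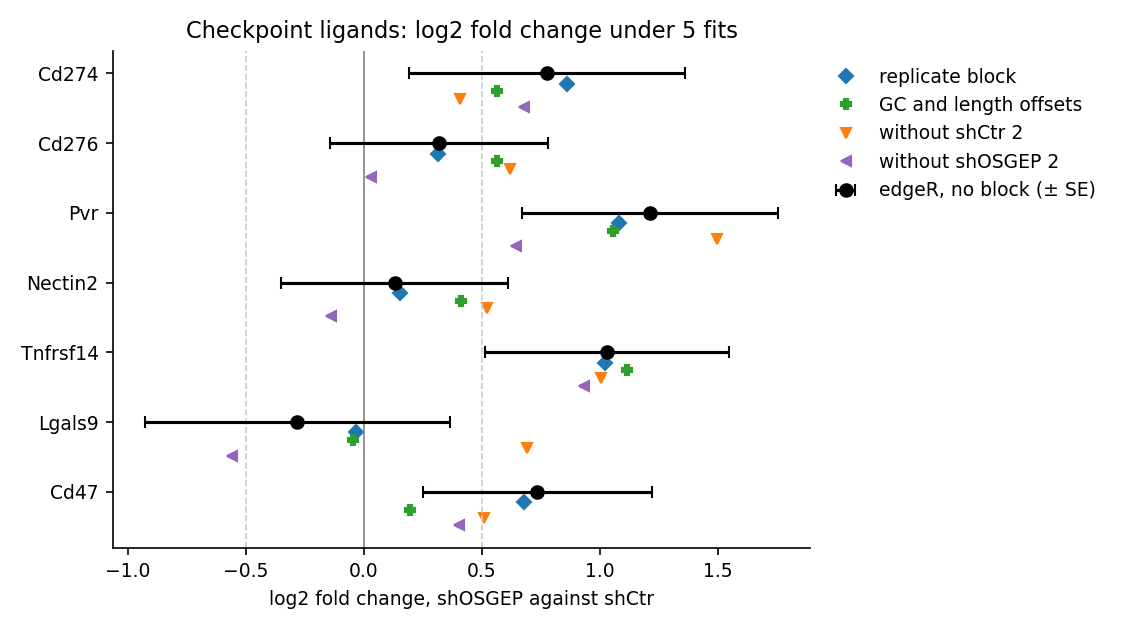
Log2 fold change of the 7 tested ligands, shOSGEP against shCtr, with the edgeR fit without a block in black (whiskers are 1 SE) and coloured markers for the replicate block, the GC and length offsets and the fits without shCtr replicate 2 or shOSGEP replicate 2. Dashed lines mark the threshold of 0.5. Pvr is at 1.21 and Lgals9 moves from -0.28 to 0.69 without shCtr replicate 2.

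To compare the ligands with each other, levels were divided by transcript length, giving CPM per kb of the longest annotated transcript. In shCtr, Lgals9 was the most abundant ligand, with a mean of 110.9 ± 94.7 CPM per kb (SD, n = 3). Next were Nectin2 (18.7 ± 8.0) and Pvr (12.7 ± 4.02), whose ranges overlapped. Cd276 (5.37 ± 1.77), Cd47 (4.41 ± 1.32) and Cd274 (3.37 ± 1.90) followed with ranges that overlapped from each to the next. Tnfrsf14 was the lowest at 0.519 ± 0.021 CPM per kb and did not overlap Cd274. In shOSGEP, Lgals9 (91.3 ± 37.1 CPM per kb) was again the highest and Tnfrsf14 (1.06 ± 0.14) again the lowest. Pvr (29.4 ± 17.8) had a higher mean than Nectin2 (20.5 ± 7.18) and Cd47 (7.33 ± 3.08) a higher mean than Cd276 (6.69 ± 2.26), and within both pairs the ranges overlapped.

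**Figure D4:**
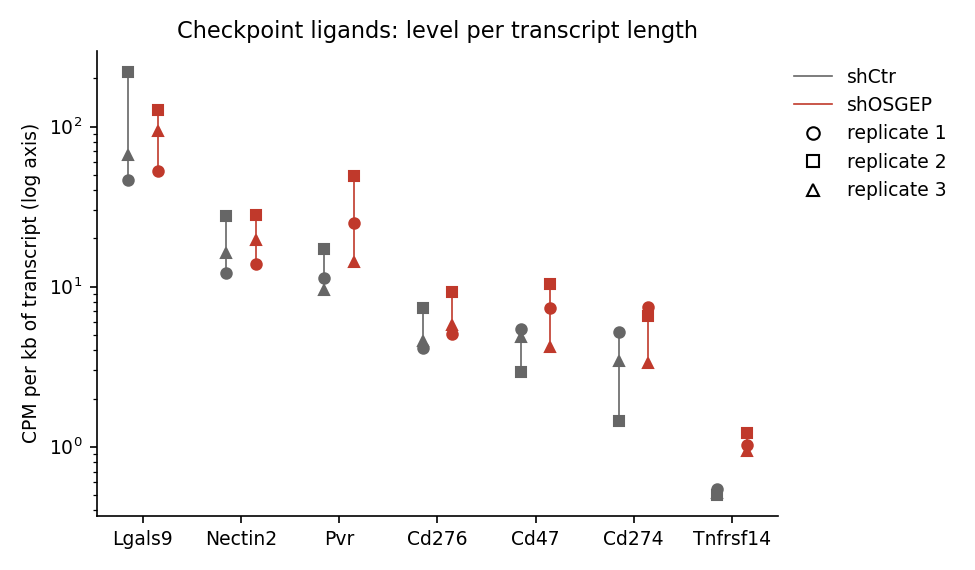
Level of the 7 tested ligands in CPM per kb of transcript on a log axis, in the order of the shCtr means, with shCtr in grey, shOSGEP in red, the marker shape giving the replicate number and the lines spanning the 3 libraries. Lgals9 lies above and Tnfrsf14 below all other ligands in both groups.

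The genes most like Cd274 over the 6 libraries, among 11811 other genes with a mean of at least 1 CPM, were Fbxl5, an iron-sensing ubiquitin ligase subunit (Pearson r of log2 CPM 0.999), Lman1, a cargo receptor of the early secretory pathway (0.998), and Calu, a calcium-binding protein of that pathway (0.997). Fbxl5 measured 40.3, 12.0 and 27.2 CPM in shCtr and 56.7, 52.2 and 27.5 CPM in shOSGEP. Its lowest value was in shCtr replicate 2, as was that of Cd274. The 6 points of each correlation are the same libraries and share their depth and GC trend, and these values are a description only.

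Of 28 further genes with checkpoint or costimulatory roles, 9 were tested, with 3 higher and 6 lower in shOSGEP and a median log2 fold change of -0.30. Most of the list encodes ligands, but Ido1, Nt5e and Entpd1 encode enzymes and Cd40 a receptor. Of the whole list, 17 genes had at most 3 counts in every library. The gene past the threshold of the study was Nectin4, a nectin that binds TIGIT, with 0.340, 0.197 and 0.0922 CPM in shCtr and 0.930, 0.969 and 0.552 CPM in shOSGEP. Its log2 fold change was 1.93 ± 0.68 (SE), with an unadjusted p of 0.0206 and an adjusted p of 1.00 in edgeR. All shCtr libraries of Nectin4 were below 0.5 CPM, so the estimate rests on few reads. Nectin4 no longer passed without shCtr replicate 2 or 3, nor without shOSGEP replicate 1 or 2, with an unadjusted p of up to 0.119.

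Regulators of Cd274 in interferon signalling were represented by 16 genes, of which 15 were tested. They hold receptors, kinases and transcription factors, and also the inhibitors Socs1, Socs3 and Ptpn2. Of the 15 tested, 12 were higher and 3 lower, with a median log2 fold change of 0.23, and 0 passed the threshold of the study. Among the inhibitors, Ptpn2 (0.23) was higher, Socs3 (-0.53) was lower and Socs1 was not tested. With neither replicate 2 library, 8 of the 15 were higher and 7 lower, with a median of 0.01, and 1 (Irf9) passed. Irf9, a DNA-binding part of the complex that recognises interferon-stimulated response elements, measured 7.14, 17.5 and 3.87 CPM in shCtr and 13.5, 58.2 and 11.1 CPM in shOSGEP. The groups overlapped for Irf9 (1.54 ± 0.82, SE, unadjusted edgeR p of 0.0951), and it was higher in 3 of 3 same-numbered comparisons. With the replicate block Irf9 was at 1.39 ± 0.33 (SE), past the threshold of the study with an unadjusted edgeR p of 0.00675, and the adjusted p was 0.741. In that fit 2.94% of all genes passed in either direction, and Irf9 was the 1 gene of this list that did. Its log2 fold change was 2.32 without shCtr replicate 2 (unadjusted p of 0.020) and 0.40 without shOSGEP replicate 2 (unadjusted p of 0.582). Stat2 had a log2 fold change of 0.66 ± 0.47 (SE), with an unadjusted edgeR p of 0.194.

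Other regulators of PD-L1, among them proteins that stabilise it at the surface, sugar-transferring enzymes and transcription factors, were represented by 21 genes, all of them tested. Of these 9 were higher and 12 lower, with a median log2 fold change of -0.14, and 0 passed. Among the smallest unadjusted edgeR p values were those of Cdk4, a cell cycle kinase (-0.84, p of 0.161), and Jun, an AP-1 transcription factor (-0.59, p of 0.178). Jun measured 23.3, 27.9 and 25.8 CPM in shCtr and 14.1, 16.4 and 20.7 CPM in shOSGEP, without overlap. Without shCtr replicate 2, which held 990 CPM of Cdk4 against 302 and 389 in the other controls, the log2 fold change of Cdk4 was -0.14.

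Partners and modifiers of CD47 were represented by 5 genes, of which 2 were higher and 3 lower. Thbs1, which encodes thrombospondin-1, a secreted protein that binds CD47, passed the threshold of the study. It measured 3.06, 0.787 and 3.64 CPM in shCtr and 9.96, 14.0 and 6.66 CPM in shOSGEP, without overlap. Its log2 fold change was 2.03 ± 0.67 (SE), with an unadjusted p of 0.0157 and an adjusted p of 1.00 in edgeR. It was 1.60 without shCtr replicate 2 and 1.31 without both libraries of replicate 2, and without shOSGEP replicate 2 (1.73) it no longer passed, with an unadjusted p of 0.0533.

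**Figure D5:**
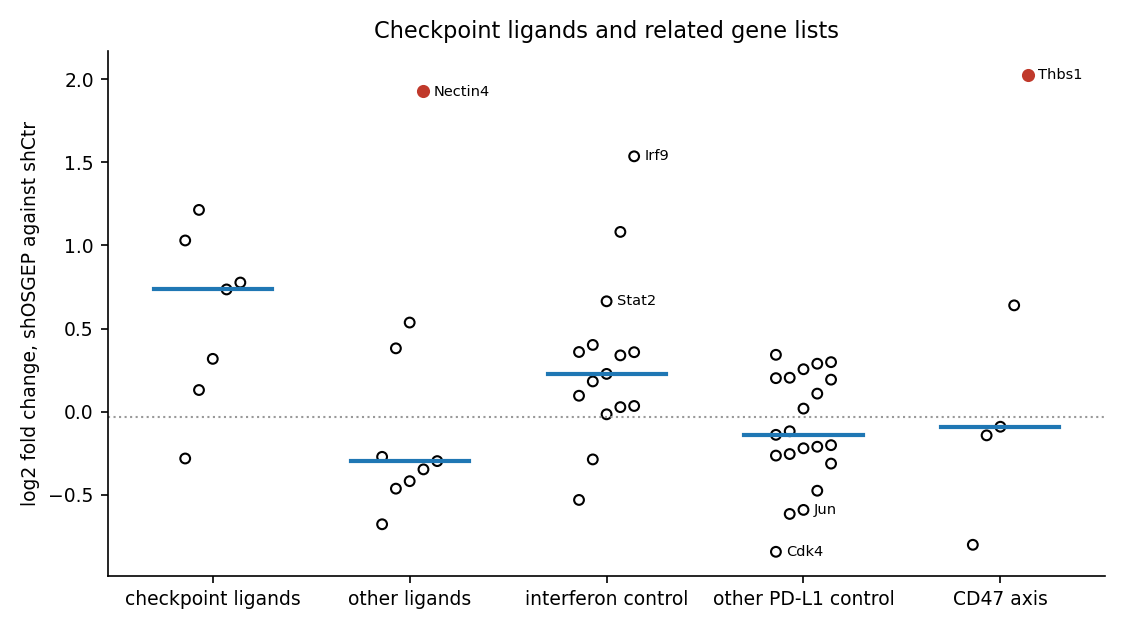
Log2 fold change, shOSGEP against shCtr, of each tested gene (circles) in the checkpoint ligands, the further checkpoint genes (labelled other ligands), the interferon and other regulators of PD-L1 and the CD47 partners, with blue lines at the list medians and a dotted line at the median of all genes. Filled red circles, for Nectin4 and Thbs1, passed the threshold of the study.

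Genes encoding receptors of these ligands, which lymphocytes carry, were mostly near the floor. Of 15 receptor genes, 10 had at most 3 counts in every library, and 2 were tested. Havcr2, which encodes TIM-3, measured 5.06, 1.92 and 4.10 CPM in shCtr and 5.54, 2.02 and 3.05 CPM in shOSGEP (log2 fold change -0.06 ± 0.62, SE), and Tnfrsf9 had a log2 fold change of 0.57 ± 0.70 (SE), or -0.14 without shOSGEP replicate 2. Of 18 leukocyte markers, 12, including Ptprc, Cd3e and Cd8a, had 0 counts in all 6 libraries, and the summed level of the list was 5.90 to 12.1 CPM in shCtr and 4.22 to 6.11 CPM in shOSGEP. The tested leukocyte markers were Cd79a (-2.01), Cd68 (-1.02) and Lyz2 (0.29), and 0 passed. With neither replicate 2 library they were at -0.52, -0.16 and -0.09, and without shCtr replicate 2 alone Cd79a was at -0.996. Of 9 fibroblast markers, 5 were tested and all 5 were higher in shOSGEP, with a median log2 fold change of 1.10. Their summed level was 7.08 to 22.6 CPM in shCtr and 27.3 to 43.3 CPM in shOSGEP. Col1a1 (2.20, unadjusted edgeR p of 0.0175) and Col1a2 (1.70, p of 0.0334), which encode the chains of type I collagen, passed the threshold of the study, while Dcn was at 0 and Col3a1 and Lum had at most 1 count. Col1a1 no longer passed without shCtr replicate 1 or 3 or shOSGEP replicate 2, with an unadjusted edgeR p of up to 0.0827. Col1a2 no longer passed without shCtr replicate 3 or shOSGEP replicate 1 or 2, with an unadjusted edgeR p of up to 0.111. With neither replicate 2 library, 4 of the 5 tested fibroblast markers were higher and 1 (Pdgfra) was lower. Their median was then 0.77, and 1 (Col1a2) passed. In bulk RNA a change in the share of a cell type and a change in RNA per cell cannot be told apart, and the part of these markers in the values of the ligands was not tested.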

How the data were processed

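Polyadenylated RNA of 6 B16F10 libraries was sequenced in paired reads. Per the labels and methods of the study, libraries were made with a TruSeq kit, and reads were trimmed with TrimGalore, aligned to GRCm38 with STAR 2.6.1d and quantified with Salmon 1.4.0. The deposited values are estimated counts per Ensembl gene in whole numbers, without normalization or a filter on genes. The strand setting was not given in the sources used here, so genes overlapping on opposite strands cannot be told apart. The antisense genes overlapping the ligands had 79 counts or fewer over all libraries.

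Groups and replicate numbers came from the labels. Genes were kept by filterByExpr (minimum count 10, minimum total 15), scaled by TMM and compared in edgeR 4.0.16 (R 4.3.3) with its quasi-likelihood F-test, two-sided, without a block, and p-values were adjusted by Benjamini-Hochberg over 12669 genes. The SE is the log2 fold change divided by the square root of F. Infections were separate. Without a block, the p-values measure the spread between the libraries of a group, which includes differences shared by same-numbered libraries. The exact permutation test also took no account of the replicate number. The fit with the replicate block sets these shared differences apart. Fits were also run on simulated data with the same dispersion for every gene, no GC trend and no library set apart. Those runs therefore do not cover the spread between the libraries here. Transcript lengths, GC contents and positions came from GENCODE M21 (GRCm38), which held 99.5% of the gene identifiers. For the GC trend, log2 CPM (prior count 2) was centred on each gene's mean and fitted in each library by natural splines of GC content and log2 length (5 degrees of freedom each).

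Deviations from the group means of same-numbered shCtr and shOSGEP libraries correlated at 0.811, 0.557 and 0.196, all over 0.1, so replicate numbers were taken to pair the libraries. The pairing rests on these values and on the labels, which number the libraries of both groups alike. The highest correlation between different numbers was 0.491, for shCtr replicate 3 with shOSGEP replicate 1. That was above the 0.196 within replicate 3. For shCtr replicate 3, the correlations of deviations therefore did not single out its own number. Its correlations of log2 CPM did, at 0.986 with shOSGEP replicate 3 against 0.954 and 0.891 with shOSGEP replicates 1 and 2. For shCtr replicate 2 the correlation of log2 CPM was 0.870 with shOSGEP replicate 2 and 0.873 with shOSGEP replicate 3.

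Alternatives were DESeq2 1.42.0, limma-voom (limma 3.58.1), 2 other scalings, 2 other filters, the replicate block, GC and length offsets with and without the block, and libraries left out. Named were all 10 ligands, Osgep, in each further list the genes past the threshold of the study or otherwise up to 3 with the smallest unadjusted p, 3 genes most like Cd274, and, after seeing their values, some markers at 0. Results of some genes named by this rule are not reported here. The ligands and lists were chosen with earlier results of these data known. For genes with several RefSeq start sites the first one listed was searched for motifs.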

Additional observations from a re-analysis of the deposited data

How the results depend on the processing

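The count of ligands past an adjusted p under 0.05 was 0 in all 16 alternatives. Of all genes tested, 14 passed with DESeq2, 3 with limma-voom and 0 in the other alternatives. The count past the threshold of the study was 0 in the reported fit. It was 1 (Pvr) with DESeq2, upper-quartile scaling, no filter beyond 1 count, the replicate block and without both libraries of replicate 2, and 2 (Pvr and Tnfrsf14) with limma-voom, at least 10 counts in every library, and the offsets with the replicate block. Over the fits that left out 1 library it was between 0 and 1, and it was 1 without shCtr replicate 2 and without shOSGEP replicate 3. The share of all genes past this threshold in either direction was 2.02% in the reported fit and between 0.516% and 6.90% in the alternatives, highest in the offsets with the replicate block. The cause was not tested. The median log2 fold change of the ligands was between 0.31 and 1.01 in the 16 alternatives, and that of Osgep between -3.81 and -2.11. Lgals9 turned to 0.30 with limma-voom, 0.041 with the offsets and replicate block, and 0.38 without both libraries of replicate 2. Leaving out 1 library gave Lgals9 values from -0.65 to 0.69, above 0 without shCtr replicate 2, and Nectin2 values from -0.14 to 0.52, below 0 without shOSGEP replicate 2 (-0.14) and without shCtr replicate 1 (-0.10). Beside Pvr (1.08, unadjusted edgeR p of 0.0141), the replicate block changed no other call of a ligand, and among the named genes of the further lists it added Irf9. Upper-quartile scaling moved the median of all genes from -0.03 to 0.07. Fits that left out 1 library compared 2 libraries with 3, and Pdcd1lg2, Cd80 and Vsir were limited by depth.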
